A study of Mus musculus with 14 samples.

Results

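66 genes of DNA replication and repair were followed through an H3K4me3 profile of the mouse cerebral cortex. They were picked by gene symbol from families with a part in copying or mending DNA: the Mcm and Orc genes, DNA polymerases, the clamp loader (Rfc) and Rpa genes, Msh and Mlh genes, Ercc, Xrcc, Rad, Brca, Fanc and Parp genes, and Tdg. Rad23b was grouped with the Ercc genes by function. Membership rests on the symbol alone: Xrcc6bp1, counted with the Xrcc genes, is named Atp23 in RefSeq. They are 66 of the 10543 genes that had a region in the data, and 67 of 11389 regions that carried a gene name. A gene with several regions was represented by that of the highest mean signal, which applied to Mcm9 alone among the 66. Its chosen region (chr10:53315997-53318158, mm9) averaged 341.8 over the postnatal samples and 208 over the pre- and postnatal samples, and its second region (chr10:53348719-53350313) averaged 220.4 and 131.

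The tissue came from C57BL/6J mice at 3 months of age that had been given nicotine, or saccharin solution as the comparison, during development. Postnatal nicotine and postnatal saccharin had 4 libraries each. Pre- and postnatal nicotine and pre- and postnatal saccharin had 3 libraries each. The treatment text, shared by all samples, describes dosing of pregnant dams starting at conception, an end at day 21 and rest until day 90, and does not describe a postnatal-only course. Chromatin was precipitated with a Millipore antibody to H3K4me3, and no genotype other than the strain is given.

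Before a cell divides, the origin recognition complex loads the Mcm helicase on DNA, DNA polymerases then copy the unwound strands, and RPA covers the exposed single strands. Mature neurons do not divide, so in the adult cortex most cells have little use for replication, but they keep base excision, nucleotide excision and strand break repair in use through life. H3K4me3 marks the promoters of genes that are active or poised, and its height follows promoter activity only loosely.

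The values were reads per region that the submitters had already adjusted with edgeR, called signal below, with 1 table per exposure. Summed signal ran from 2004918 to 2489860 per postnatal library and from 1445810 to 2372855 per pre- and postnatal library, and the sequencing depth is unknown. Libraries 1 and 2 of each postnatal group, and likewise libraries 3 and 4, differed from each other by 1.01 to 1.08 times the variance of counting noise, against 2.21 to 2.71 times for the other pairs. Means of each such couple stand for 1 sample, giving 2 postnatal nicotine against 2 postnatal saccharin samples. Nothing in the labels states that different animals gave the samples of a group, and every p-value below therefore reflects only how these samples vary, which may be technical. 15 regions of very high signal held 8.47% to 25.2% of the postnatal signal and 19.1% to 49.7% of the pre- and postnatal signal. Cortical markers were present: 6 of 8 excitatory neuron genes had a region. The highest was Neurod2, with a mean signal of 184 in postnatal saccharin and 102 in pre- and postnatal saccharin samples. The lowest in postnatal saccharin samples was Camk2a with 66.1. Regions were also found for 3 of 4 interneuron, 4 of 6 oligodendrocyte, 3 of 5 endothelial and 1 of 5 microglia markers. Of 5 genes of other tissues, En1 had a region. None of 5 astrocyte markers had a region, and of 8 genes of cycling cells Mki67 alone did. The summed signal of the 6 excitatory markers was 591 to 667 in postnatal nicotine and 640.0 to 676 in postnatal saccharin samples, and 403 to 495 in pre- and postnatal nicotine and 434 to 474 in pre- and postnatal saccharin libraries. In bulk tissue, fewer cells of a type and less of the mark per cell cannot be told apart.

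Levels are described first, in saccharin samples. The regions of the 66 genes were 917 to 2648 bp wide, with a median of 1385 bp, against 1657 bp over all genes. Their median signal per kb was 52.8 in postnatal saccharin samples, against 61.1 over all genes, and 31.3 in pre- and postnatal saccharin samples, against 37.0 over all genes. By signal per kb, 21, 15, 20 and 10 of the 66 genes fell in the lowest, lower middle, upper middle and top quartile of all genes in the postnatal table, and 25, 14, 15 and 12 in the pre- and postnatal table. The genes kept their order between the tables (Spearman's rho of signal 0.961 over 66 genes, which share region widths and tissue). Signal grew with width (rho 0.690 over the 66 genes and 0.749 over all genes).

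The strongest mark per kb among the 66 in postnatal saccharin samples lay at Rad21, which encodes a subunit of cohesin, with 184.9 per kb. Parp12, an ADP-ribosyltransferase, followed with 156 per kb, Mcm9, a helicase related to the replicative Mcm proteins that serves recombination, with 152. Rad23b, a partner of the nucleotide excision factor XPC, with 142, and Msh6, which helps to recognise base mismatches, with 139 were also near the top. In pre- and postnatal saccharin samples Mcm9 led with 93.5 per kb, followed by Rad21 with 87.7, Parp12 with 82.7, Rad23b with 82.1, Msh6 with 80.7 and Fancf, a subunit of the Fanconi anaemia core complex, with 78.7. The Mcm9 values, here and below, are those of its chosen region alone. Its second region, 1594 bp wide, averaged 131 over the pre- and postnatal samples. Which of these regions covers the Mcm9 promoter was not analysed. At the low end of the postnatal table stood Pold4, the small accessory subunit of DNA polymerase delta, with 15.4 per kb, Mcm2, a subunit of the replicative helicase, with 15.5, Parp2, which binds broken DNA, with 15.7, and Rpa3, the small subunit of RPA, with 16.6.

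By role, the median signal per kb in postnatal saccharin samples was 88.8 for the 7 Parp genes, 83.0 for the 7 Brca and Fanc genes, 71.4 for the 6 nucleotide excision genes, 60.4 for the 4 Xrcc genes, 52.9 for the 9 origin licensing genes, 49.4 for the 6 mismatch repair genes, 43.1 for the 11 polymerase genes, 40.5 for the 10 Rad genes and 35.9 for the 5 clamp loader and RPA genes. The Parp, Fanconi and nucleotide excision genes thus had higher medians per kb than the polymerase genes, which here include the repair polymerases Polb, Poli and Polq, and than the clamp loader and RPA genes. Ranges within a role were wide: the licensing genes spanned 15.5 per kb at Mcm2 to 152 at Mcm9 and the Parp genes 15.7 at Parp2 to 156 at Parp12. Among the genes that mend nicked or broken strands, Parp1, the main sensor of strand breaks, had 88.8 per kb, Polb, which fills gaps in base excision repair, 52.7, Xrcc1, a scaffold for strand break repair, 48.8, and Xrcc5, a subunit of the Ku end-joining factor, 19.9.

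**Figure D1:**
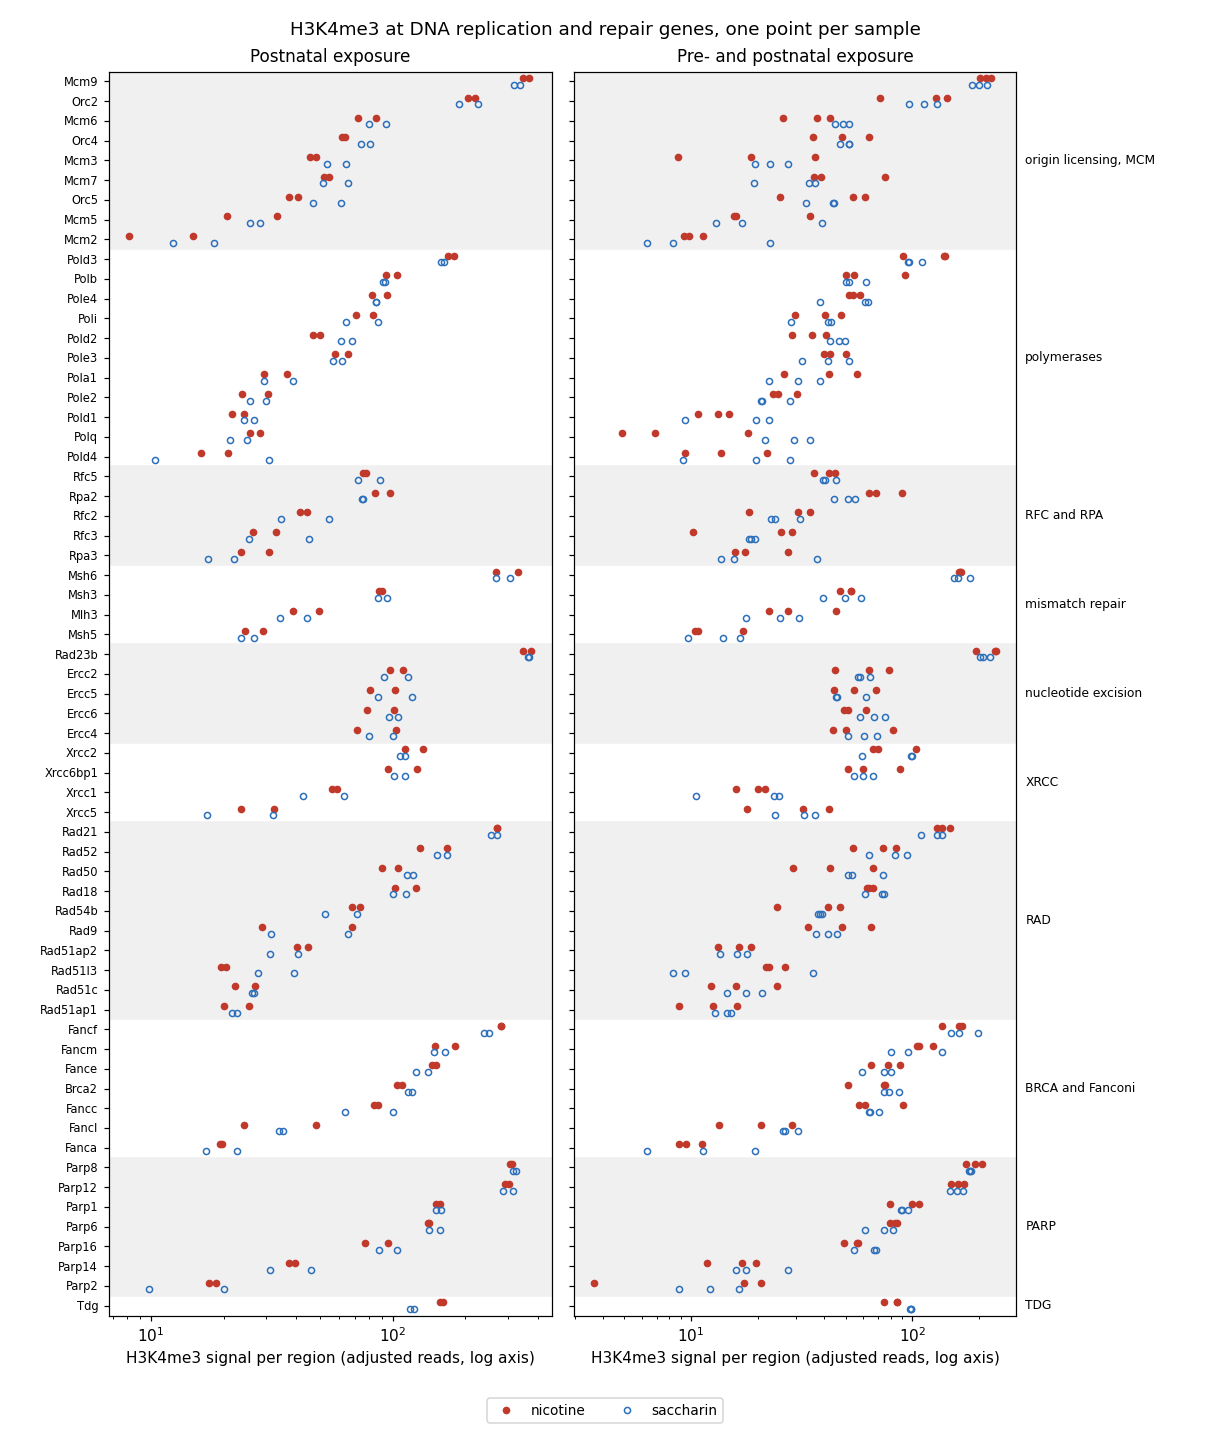
H3K4me3 signal (adjusted reads per region, log axis) of 63 of the genes in every sample, grouped by role, with nicotine as filled and saccharin as open circles. The left panel holds 2 nicotine and 2 saccharin postnatal samples, each a mean of 2 libraries, and the right panel 3 and 3 pre- and postnatal samples; the points of a gene lie close together compared with the range between genes.

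How closely samples repeated a value depended on its height. In the 22 genes with the lowest signal the median coefficient of variation was 30.7% over pre- and postnatal nicotine and 28.4% over pre- and postnatal saccharin samples, and in the 22 with the highest signal it was 12.0% in nicotine and 9.69% in saccharin samples. The 95% confidence interval of a nicotine minus saccharin difference reached to either side by a median given here on the log2 scale. For the lowest 22 this median was 0.71 in the postnatal table and 0.91 in the pre- and postnatal table. For the highest 22 it was 0.26 and 0.41. Mcm2, Fanca, Pold4 and Parp2 had wider intervals than the medians of the lowest 22. Among these genes the narrowest reached 0.816 to either side in the postnatal table (Fanca) and 1.00 in the pre- and postnatal table (Pold4). Differences at these genes smaller than their own intervals were not detectable with these samples.

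Promoter sequences were available from RefSeq (GRCm38.p6) for 53 of the 66 genes, as 62 windows of 300 bases, from 250 before to 50 after the start of a transcript. Genes with no matched window included Parp14, Rad21, Rad50, Rad51l3, Rad54b, Rad9, Xrcc2, Rfc2, Polb and Poli. E2F factors, which drive the genes of S phase, bind letters close to TTTGGCGC, TTTCGCGC or TTTCCCGC; the windows were searched for these on both strands, where TTTGGCGC and TTTCGCGC can overlap as TTTCGCGCCAAA. They occurred in 17 of the 62 windows (27.4%), against 3.31% of 10735 windows of genes with a region and 1.84% of all 32851 windows. The 15 genes were Mcm3, Mcm5, Mcm6 and Mcm7 of the licensing genes, Pola1, Pold1, Pold3, Pole2 and Pole4 of the polymerases, Msh3, Msh5 and Msh6 of mismatch repair, and Rfc3, Rad51c and Brca2. No window of the matched nucleotide excision, Xrcc or Parp genes held them.

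The NF-Y letters CCAAT stood in 54.8% of the 62 windows, against 37.2% for genes with a region. The ETS letters CCGGAAG stood in 24.2% against 15.4%, the cAMP response element TGACGTCA in 8.06% against 3.02%, the NRF1 letters CGCATGCGC in 4.84% against 3.49%, the Sp letters GGGCGG in 61.3% against 64.6%, the cell cycle homology letters TTTGAA in 8.06% against 11.2% and the TATA letters TATAAA in 8.06% against 7.10%. The E2F letters are therefore the motif whose share differed most, in ratio, from that of genes with a region; a match is a description of letters only. The median ratio of observed to expected CpG was 0.908 in the 62 windows, against 0.75 for genes with a region and 0.384 for all windows. A start of another gene on the opposite strand within 1000 bases was found for 13 of the 53 genes (24.5%), against 1156 of 8361 genes with a region (13.8%). Among these, Mcm7 starts 138 bases from Ap4m1, Rpa3 147 bases from Umad1, Orc4 241 bases from Mbd5 and Rad51c 111 bases from Tex14, so their regions cannot be given to either gene alone.

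**Figure D2:**
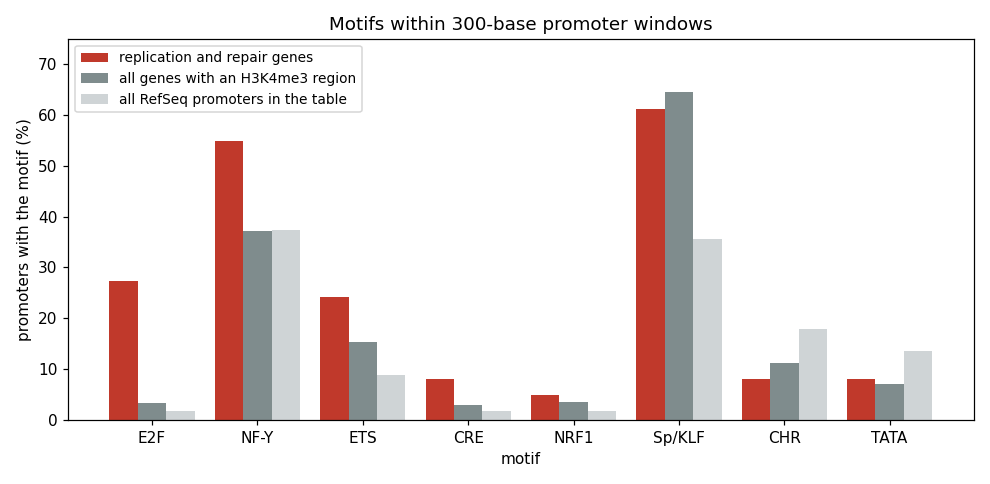
Percentage of 300-base promoter windows that hold each motif on either strand, for the 62 windows of replication and repair genes, the 10735 windows of all genes with an H3K4me3 region and all 32851 windows. The E2F bar of the replication and repair genes reaches 27.4%, against 3.31% and 1.84%.

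The windows of 4 Mcm genes are shown for their E2F letters, with those of Tdg, Polq and Rpa2 because the exposures are described on these genes further on. Mcm7 has another window (chr5:138171217-138171516, minus strand), which holds no E2F letters and is not printed. Capitals mark the E2F letters and CCAAT on either strand, also where the motifs overlap, as in the TTTCGCGCCAAT of Mcm7. The windows, on GRCm38.p6, are chr1:20820263-20820562 (minus strand) for Mcm3, chr8:75109259-75109558 (plus strand) for Mcm5, chr1:128359656-128359955 (minus strand) for Mcm6, chr5:138171834-138172133 (minus strand) for Mcm7, chr10:82629588-82629887 (plus strand) for Tdg, chr16:37011536-37011835 (plus strand) for Polq and chr4:132768110-132768409 (plus strand) for Rpa2. All are written 5′ to 3′ along the strand of the gene.
Mcm3: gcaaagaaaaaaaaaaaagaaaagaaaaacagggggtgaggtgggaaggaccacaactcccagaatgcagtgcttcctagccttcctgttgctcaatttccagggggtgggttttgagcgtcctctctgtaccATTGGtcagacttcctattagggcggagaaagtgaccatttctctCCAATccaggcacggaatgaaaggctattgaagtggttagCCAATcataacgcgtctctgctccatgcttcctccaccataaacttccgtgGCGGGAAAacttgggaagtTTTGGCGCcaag
Mcm5: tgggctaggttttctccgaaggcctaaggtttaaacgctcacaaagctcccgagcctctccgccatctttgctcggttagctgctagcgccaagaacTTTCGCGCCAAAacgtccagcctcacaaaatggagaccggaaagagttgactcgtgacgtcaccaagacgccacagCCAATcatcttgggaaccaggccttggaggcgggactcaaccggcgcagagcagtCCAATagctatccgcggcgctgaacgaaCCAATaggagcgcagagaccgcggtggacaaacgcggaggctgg
Mcm6: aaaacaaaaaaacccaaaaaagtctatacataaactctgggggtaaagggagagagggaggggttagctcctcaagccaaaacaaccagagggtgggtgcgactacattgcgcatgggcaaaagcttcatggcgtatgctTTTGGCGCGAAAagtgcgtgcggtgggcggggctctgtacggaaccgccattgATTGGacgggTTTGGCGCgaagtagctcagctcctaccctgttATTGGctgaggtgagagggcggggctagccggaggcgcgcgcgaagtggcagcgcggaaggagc
Mcm7: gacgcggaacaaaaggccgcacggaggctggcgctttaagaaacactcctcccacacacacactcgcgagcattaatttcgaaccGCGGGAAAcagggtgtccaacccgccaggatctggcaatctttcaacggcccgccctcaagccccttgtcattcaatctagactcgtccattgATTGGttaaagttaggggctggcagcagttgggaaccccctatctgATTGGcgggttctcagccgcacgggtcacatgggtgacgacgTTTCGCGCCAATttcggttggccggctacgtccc
Tdg: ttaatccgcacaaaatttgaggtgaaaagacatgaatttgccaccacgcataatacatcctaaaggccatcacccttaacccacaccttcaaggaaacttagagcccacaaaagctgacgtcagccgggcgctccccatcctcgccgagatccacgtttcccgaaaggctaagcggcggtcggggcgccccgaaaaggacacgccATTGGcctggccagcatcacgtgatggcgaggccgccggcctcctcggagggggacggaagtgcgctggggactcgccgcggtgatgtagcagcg
Polq: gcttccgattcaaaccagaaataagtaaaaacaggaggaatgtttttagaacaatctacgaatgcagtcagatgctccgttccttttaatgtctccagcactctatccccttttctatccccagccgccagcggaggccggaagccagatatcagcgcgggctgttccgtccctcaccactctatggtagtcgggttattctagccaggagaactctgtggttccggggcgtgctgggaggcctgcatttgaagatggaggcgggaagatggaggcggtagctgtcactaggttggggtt
Rpa2: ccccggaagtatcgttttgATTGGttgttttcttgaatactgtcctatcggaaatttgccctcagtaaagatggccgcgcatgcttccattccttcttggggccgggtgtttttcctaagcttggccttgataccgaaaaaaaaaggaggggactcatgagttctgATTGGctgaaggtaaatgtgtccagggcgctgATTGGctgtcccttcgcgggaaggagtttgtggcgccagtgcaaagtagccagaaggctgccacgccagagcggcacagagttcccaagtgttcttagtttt

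In these windows the E2F letters of Mcm3 lie after the start of transcription and those of Mcm5 and Mcm6 before it, while Mcm7 has them on either side. Genes with E2F letters had a lower median signal per kb in saccharin samples than matched genes without: 35.5 against 60.0 in the postnatal table and 20.4 against 34.1 in the pre- and postnatal table (15 and 38 genes, no test made). The highest of the 15 in postnatal saccharin samples were Msh6 with 139, Brca2 with 96.6 and Pold3 with 81.5 per kb. Regions are on mm9 and windows on GRCm38.p6, so they were matched by gene and not by position.

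Nicotine was compared with saccharin first after postnatal exposure. None of the 66 genes passed limma with Benjamini-Hochberg adjustment over 14873 regions, as did no region at all (percent called 0.0), the smallest adjusted p being 1.00. At an unadjusted p under 0.05, 2 of the 66 lay higher, Tdg among them (0.961% of all regions did) and no member lay lower (0.928% of all regions did). Leaving out any of the 4 samples left 1 gene, Tdg, at that level. The median log2 difference over the 66 genes was -0.00, with 33 higher and 33 lower, and -0.00 over all regions. The groups did not overlap in 11 genes that lay higher (16.7%) and 9 that lay lower (13.6%), against 15.0% and 14.0% of all regions, so these counts were near the background.

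Tdg encodes the glycosylase that removes thymine from G-T mismatches and also the oxidised cytosines that TET enzymes make, a step in active DNA demethylation. Its region (chr10:82092240-82093813, mm9) had a signal of 157 and 162 in postnatal nicotine samples, against 118 and 123 in postnatal saccharin samples. Both nicotine samples were above both saccharin samples. The means were 159 ± 3.36 and 120.5 ± 3.13 (SD, n = 2 each), and the difference was 0.40 ± 0.13 on the log2 scale (SE, 95% confidence interval 0.13 to 0.67, limma adjusted p = 1.00). Within the samples of high share of signal in the 15 strongest regions the difference was 0.35, and within those of low share 0.45, with 1 sample on each side.

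Among mismatch repair genes, 5 of 6 lay higher in postnatal nicotine samples and 1 lower, none past the adjusted threshold, with a median of 0.10. Msh6 had a signal of 268 and 329 in nicotine, against 304 and 266 in saccharin samples, which overlapped (log2 difference 0.06 ± 0.12, SE). Mlh3, which acts mainly in meiosis, had 49.8 and 38.8 in nicotine, against 44.2 and 34.2 in saccharin samples, with overlap (0.17 ± 0.27). Msh5, which also serves meiosis, had 24.6 and 29.2 against 23.7 and 26.7, with overlap (0.09 ± 0.34).

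Among licensing genes, 7 of 9 lay lower in postnatal nicotine samples and 2 higher, with a median of -0.15. Orc5, a subunit of the origin recognition complex, had 40.7 and 37.1 in nicotine, against 46.9 and 60.9 in saccharin samples (log2 difference -0.45 ± 0.25). Orc4, of the same complex, had 61.9 and 63.7 in nicotine, against 73.6 and 80.2 in saccharin samples (-0.29 ± 0.19), and Mcm3, of the helicase, had 48.3 and 45.6 against 64.2 and 53.7 (-0.32 ± 0.23). In these 3 genes both nicotine samples were below both saccharin samples, and each interval included 0. Mcm2, Mcm5, Mcm6 and Mcm7 overlapped between the groups, with differences of -0.41, -0.04, -0.15 and -0.12.

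Polymerases split 7 higher and 4 lower, with a median of 0.04. Pold2, an accessory subunit of polymerase delta (chr11:5777482-5778981, mm9), had 46.7 and 50.1 in postnatal nicotine, against 61.2 and 68.0 in postnatal saccharin samples, without overlap (-0.41 ± 0.22). Pold3, of the same polymerase, went the other way, with 179 and 169.6 in nicotine against 163 and 158 in saccharin samples (0.12 ± 0.12). The catalytic subunit Pold1 overlapped, with 21.7 and 24.3 in nicotine and 24.2 and 26.8 in saccharin samples (-0.15 ± 0.35).

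Of the clamp loader and RPA genes, Rpa2 had 84.2 and 97.9 in postnatal nicotine, against 75.1 and 74.6 in postnatal saccharin samples, without overlap (0.27 ± 0.17). Rpa3 had 23.5 and 30.8 against 22.1 and 17.2, also without overlap (0.44 ± 0.36), while Rfc2, Rfc3 and Rfc5 differed by -0.02, -0.19 and -0.07. Nucleotide excision genes were lower in 5 of 6, with a median of -0.12; Ercc6, needed for repair of transcribed strands, had 78.6 and 102 in nicotine, against 105 and 97.0 in saccharin samples, with overlap (-0.18 ± 0.17). All 4 genes with an Xrcc symbol lay higher, by 0.04 at Xrcc6bp1 to 0.23 at Xrcc5. Of these, Xrcc2, a recombination factor, did not overlap, with 133 and 113 in nicotine against 108 and 112 in saccharin samples.

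Rad genes split evenly, 5 higher and 5 lower. Rad51l3, another recombination factor (chr11:82703193-82704361, mm9), had the most negative postnatal difference of the 66, with 20.4 and 19.5 in nicotine against 27.8 and 39.1 in saccharin samples (-0.70 ± 0.34, interval -1.42 to 0.03). Rad50, of the complex that senses broken DNA ends, had 90.6 and 105 in nicotine against 121 and 114 in saccharin samples (-0.26 ± 0.15). Neither gene overlapped between the groups, and both intervals included 0. Of the Brca and Fanc genes 4 lay higher and 3 lower: Fancf had 281 and 279 in nicotine against 239 and 251 in saccharin samples (0.19 ± 0.11), Fance, of the same core complex, 151 and 146 against 141 and 125 (0.16 ± 0.13), and Brca2, a mediator of recombination, 109 and 105 against 121 and 116 (-0.15 ± 0.14). Parp genes were lower in 5 of 7, with a median of -0.02; Parp1 had 150.4 and 157 in nicotine against 151 and 158 in saccharin samples (-0.01 ± 0.12).

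**Figure D3:**
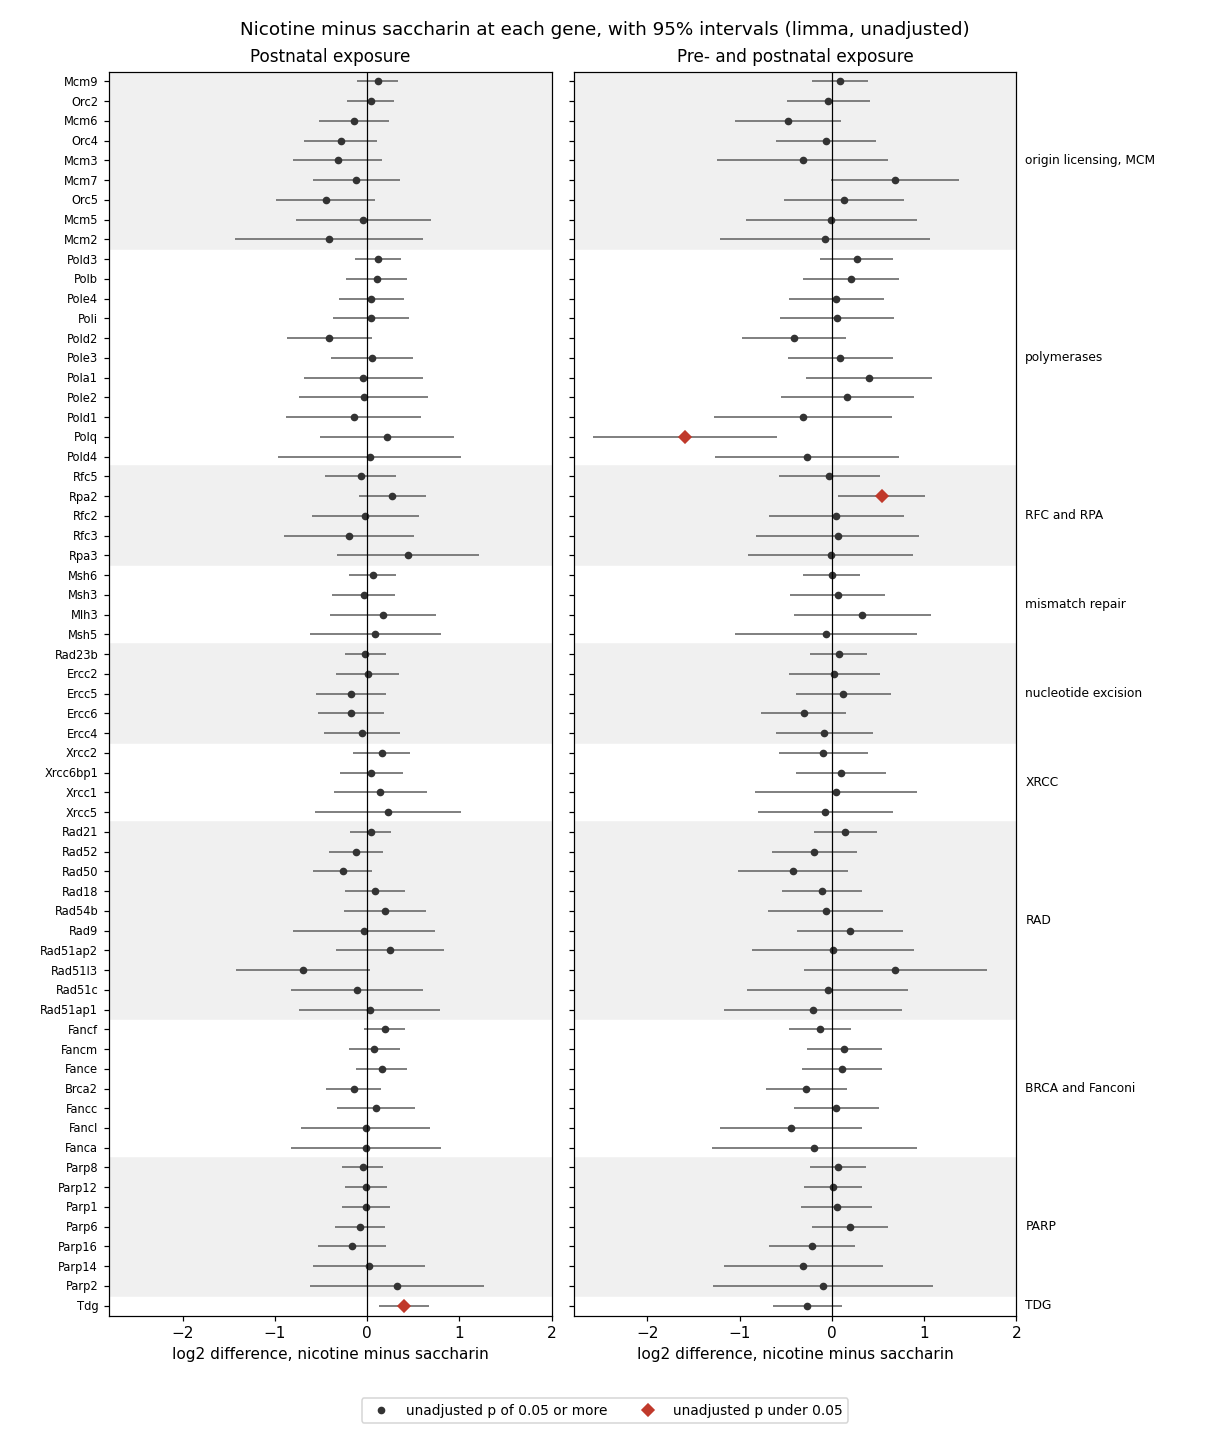
Log2 difference in H3K4me3 signal, nicotine minus saccharin, of each of 63 of the genes with its 95% confidence interval, after postnatal exposure (left) and after pre- and postnatal exposure (right), grouped by role. Lines are the intervals and red diamonds mark genes at an unadjusted p under 0.05: Tdg after postnatal exposure and Polq and Rpa2 after pre- and postnatal exposure, the genes drawn whose intervals exclude 0.

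After pre- and postnatal exposure, again none of the 66 genes and no region passed the adjusted threshold (limma over 14879 regions, percent called 0.0, smallest adjusted p 0.987). At an unadjusted p under 0.05, Rpa2 lay higher (1.72% of all regions did) and Polq lower (1.87% of all regions did). These counts became 2 higher and 3 lower without nicotine library 1, 4 higher without nicotine library 3, 2 lower without nicotine library 4 and 2 higher without saccharin library 2. In either direction, 1690 of 14881 regions were at that level without nicotine library 1 and 473 of 14880 without nicotine library 3. Without nicotine library 4 it was 549 of 14880 regions, and without saccharin library 2 it was 371 of 14881. Rpa2 was not among the higher genes without nicotine library 1 or without saccharin library 2, while Polq was among the lower genes in each of these refits. The median difference was -0.01 over the 66 genes, with 32 higher and 34 lower, against 0.00 over all regions. Groups did not overlap in 1 gene that lay higher (1.52%) and 4 that lay lower (6.06%), against 4.49% and 4.46% of all regions.

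Polq encodes the polymerase that joins broken ends through short stretches of shared sequence. Its region (chr16:37011409-37012709, mm9) had a signal of 18.2, 6.91 and 4.87 in pre- and postnatal nicotine libraries 1, 3 and 4, against 29.1, 34.7 and 21.6 in saccharin libraries 1, 2 and 3. All nicotine values were below all saccharin values, and all were low compared with the median of 52.8 to 56.9 over regions of a library. The means were 9.98 ± 7.16 and 28.5 ± 6.56 (SD, n = 3 each), and the log2 difference was -1.59 ± 0.48 (SE, 95% confidence interval -2.59 to -0.59, limma adjusted p = 0.987). It ran from -2.09 to -1.23 when each library was left out in turn. The 15 strongest regions took 19.1%, 49.7% and 41.9% of signal in nicotine libraries 1, 3 and 4. In saccharin libraries 1, 2 and 3 they took 39.9%, 28.8% and 33.1%. With this share as a covariate the Polq difference was -1.45.

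Rpa2 encodes the subunit of RPA that checkpoint kinases phosphorylate. Its region (chr4:132323953-132325168, mm9) had 90.1, 68.3 and 63.8 in pre- and postnatal nicotine, against 55.1, 44.5 and 51.3 in saccharin libraries, with all nicotine values above all saccharin values. The difference was 0.54 ± 0.23 (SE, 95% confidence interval 0.07 to 1.01, limma adjusted p = 0.987) and was 0.39 without nicotine library 1. Rpa2 was thus without overlap, and higher, in both exposures. Of all regions, 15.0% lay higher without overlap after postnatal exposure and 4.49% after pre- and postnatal exposure. The share of regions with both was not counted.

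Pold2 was lower without overlap in both exposures: 40.8, 28.7 and 35.3 in pre- and postnatal nicotine, against 49.9, 46.7 and 42.6 in saccharin libraries, a difference of -0.41 ± 0.27 (interval -0.98 to 0.15). Of all regions, 14.0% lay lower without overlap after postnatal exposure and 4.46% after pre- and postnatal exposure, and the share with both was not counted. Mcm6 had 42.7, 26.1 and 37.3 in nicotine, against 44.8, 52.0 and 48.9 in saccharin libraries, without overlap (-0.47 ± 0.28). Mcm7 had 35.9, 38.6 and 75.7 in nicotine, against 34.3, 36.4 and 19.3 in saccharin libraries (0.69 ± 0.33). These overlapped, the highest Mcm7 value being nicotine library 4 and the lowest saccharin library 3. Of all 9 licensing genes, 3 lay higher and 6 lower, with a median of -0.04.

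Pola1, the catalytic subunit of the polymerase that makes primers, had 26.4, 56.4 and 42.2 in pre- and postnatal nicotine, against 38.4, 30.6 and 22.4 in saccharin libraries, with overlap (0.41 ± 0.33). Ercc6 had 61.7, 51.0 and 49.1 against 58.3, 75.7 and 67.0, with overlap (-0.31 ± 0.22). Rad50 had 42.6, 28.9 and 66.8 against 51.0, 53.4 and 73.8, with overlap (-0.42 ± 0.29). Rad51l3 had 21.8, 26.7 and 22.6 in nicotine, against 9.46, 35.7 and 8.27 in saccharin libraries, with overlap and with the opposite sign to the postnatal exposure (0.69 ± 0.48). The lowest and the highest of its 6 values were both saccharin libraries. Xrcc5 had 17.9, 32.1 and 42.3 against 24.0, 32.3 and 36.5, with overlap (-0.07 ± 0.35). The role medians of the Brca and Fanc genes, the Parp genes and the Rad genes were -0.13, 0.01 and -0.06.

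The crosslink and recombination genes after pre- and postnatal exposure overlapped throughout. Fancf had 136, 163 and 167 in nicotine, against 163, 149 and 198 in saccharin libraries (-0.13 ± 0.16). Brca2 had 74.9, 74.7 and 51.0 against 87.3, 74.7 and 78.7 (-0.28 ± 0.21). Fancl, the ubiquitin ligase of the Fanconi pathway, had 20.8, 13.4 and 28.5 against 26.0, 30.3 and 26.5 (-0.44 ± 0.37), the most negative value of these 7 genes. The strongest genes of the set gave the narrowest intervals: Rad23b had 237, 194 and 239 in nicotine, against 202, 224 and 209.6 in saccharin libraries (0.07 ± 0.15, interval -0.23 to 0.38). Mcm9 had 214, 228 and 201 against 218, 187 and 201 (0.09 ± 0.14, interval -0.21 to 0.39), and Parp8, an ADP-ribosyltransferase, had 206, 193 and 175 against 180.0, 183 and 185 (0.06 ± 0.15, interval -0.24 to 0.37). Larger differences than these bounds at Rad23b, Mcm9 and Parp8 lie outside the 95% intervals. At the low end, Mcm2 had 11.4, 9.31 and 9.81 in nicotine, against 22.7, 6.34 and 8.31 in saccharin libraries (-0.08 ± 0.55), and Fanca 9.47, 11.2 and 8.83 against 6.33, 11.4 and 19.6 (-0.19 ± 0.53).

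**Figure D4:**
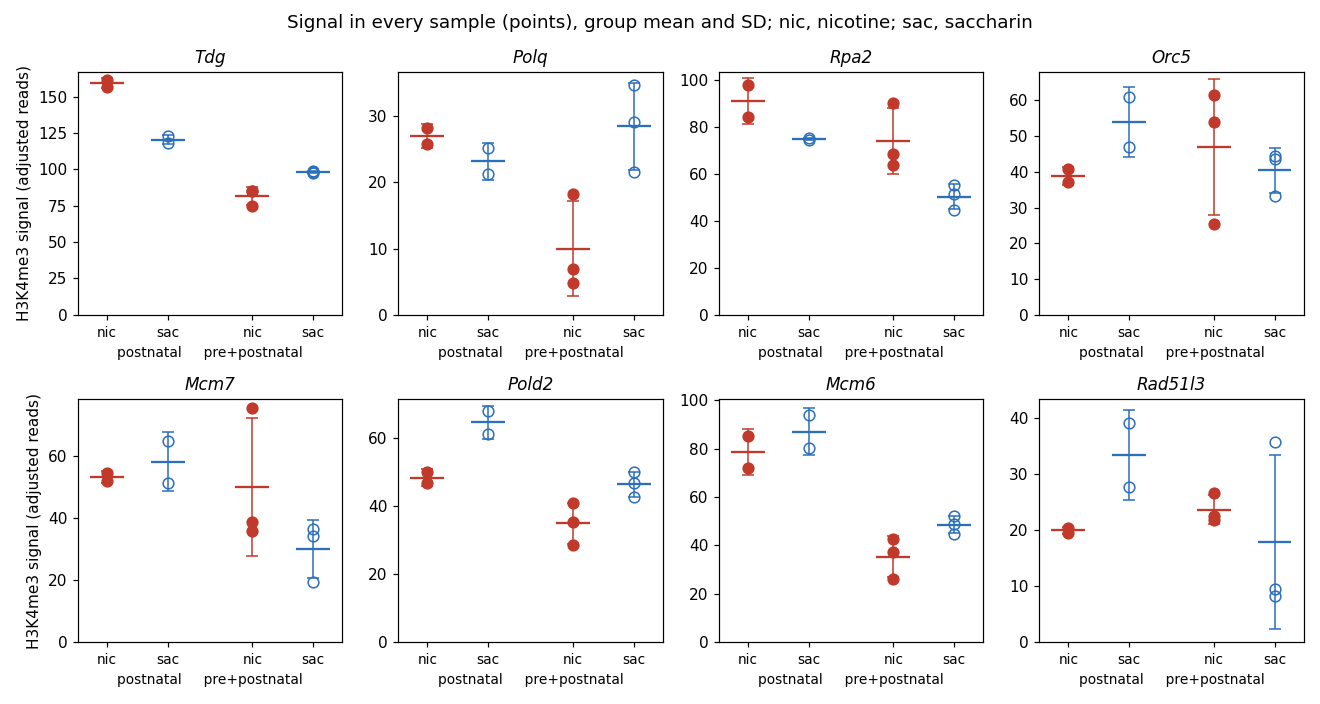
H3K4me3 signal (adjusted reads per region) in every sample of 8 genes described in detail, with nicotine left of saccharin within each exposure and the bars at the group mean and SD. Tdg lies at 157 and 162 in postnatal nicotine against 118 and 123 in postnatal saccharin samples, and Polq at 4.87 to 18.2 in pre- and postnatal nicotine against 21.6 to 34.7 in pre- and postnatal saccharin samples.

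Tdg had 74.8, 85.1 and 85.4 in pre- and postnatal nicotine, against 97.8, 99.0 and 98.2 in saccharin libraries. All nicotine values were below all saccharin values, the reverse of the postnatal table. The means were 81.8 ± 6.03 and 98.3 ± 0.604 (SD, n = 3 each), a difference of -0.27 ± 0.18 (SE, interval -0.64 to 0.11). Polq in the postnatal table had 25.7 and 28.2 in nicotine, against 25.1 and 21.2 in saccharin samples (0.22 ± 0.34). The difference between exposures was itself tested in a joint limma fit, as the pre- and postnatal effect minus the postnatal effect: it was -0.67 ± 0.22 for Tdg and -1.81 ± 0.66 for Polq (SE), each with an adjusted p of 1.00. These were the members at an unadjusted p under 0.05, 2 of 66 (3.03%), against 1.47% of all regions, and no region passed after adjustment (percent called 0.0, 219 regions at an unadjusted p under 0.05).

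Other genes of the same pathways were counted from lists of known members. Of 30 further genes of the replication fork, 19 had a region; 4 lay higher and 15 lower after postnatal nicotine, with a median of -0.15, and 7 higher and 12 lower after pre- and postnatal nicotine, with a median of -0.12, against -0.00 and 0.00 over all regions. Pcna, the sliding clamp of the polymerases, averaged 48.9 ± 8.55 in postnatal nicotine and 64.8 ± 5.95 in postnatal saccharin samples (SD, n = 2 each; log2 difference -0.41 ± 0.23, SE) and 38.7 ± 9.96 in pre- and postnatal nicotine and 53.7 ± 7.35 in pre- and postnatal saccharin libraries (SD, n = 3 each; -0.48 ± 0.27, SE). Gins2, a subunit of the active helicase, differed by -0.82 ± 0.42 and -0.83 ± 0.70. None of the 19 passed the adjusted threshold, and none reached an unadjusted p under 0.05, in either exposure.

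Of 8 genes of active DNA demethylation, a pathway that Tdg completes, 2 lay higher and 6 lower after postnatal nicotine (median -0.11), and 7 higher and 1 lower after pre- and postnatal nicotine (median 0.19). Tet1, which oxidises methylated cytosine, averaged 21.5 ± 4.71 in postnatal nicotine and 30.4 ± 9.25 in postnatal saccharin samples (-0.46 ± 0.36), and 37.1 ± 19.7 in pre- and postnatal nicotine and 17.9 ± 4.94 in pre- and postnatal saccharin libraries (0.90 ± 0.40). The limma adjusted p of Tet1 was 0.987 in the pre- and postnatal table. Among 12 damage signalling genes, 3 lay higher and 9 lower after postnatal nicotine, and 7 higher and 5 lower after pre- and postnatal nicotine. Trp53, the p53 gene, averaged 86.2 ± 15.1 in pre- and postnatal nicotine and 58.5 ± 17.8 in pre- and postnatal saccharin libraries (0.58 ± 0.24, limma adjusted p = 0.987). In postnatal samples it averaged 71.7 ± 25.1 in nicotine and 72.7 ± 21.5 in saccharin (-0.03 ± 0.25). Tet1 and Trp53, 1 of 8 and 1 of 12 genes, were at an unadjusted limma p under 0.05 after pre- and postnatal exposure. Of all regions, 1.72% lay higher at that level. The remaining lists held no gene past the adjusted threshold or at an unadjusted p under 0.05.

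Of 11 genes of nucleotide supply, 9 had a region; 2 lay higher and 7 lower after postnatal nicotine, and 5 higher and 4 lower after pre- and postnatal nicotine. Rrm1, the large subunit of ribonucleotide reductase, differed by -0.18 ± 0.30 and 0.53 ± 0.32 (SE). Of 18 further base excision genes, 9 had a region, with 6 higher and 3 lower in each exposure. Lig3, a ligase that seals nicks, averaged 292 ± 6.48 in postnatal nicotine and 252 ± 7.00 in postnatal saccharin samples (SD, n = 2 each; 0.21 ± 0.11, SE), and 187 ± 27.8 in pre- and postnatal nicotine and 162 ± 24.1 in pre- and postnatal saccharin libraries (SD, n = 3 each; 0.20 ± 0.17, SE). Of 15 further nucleotide excision genes, 7 had a region, with 3 higher and 4 lower after postnatal nicotine and 5 higher and 2 lower after pre- and postnatal nicotine. Xpa, which verifies damage in that pathway, differed by 0.19 ± 0.12 and -0.15 ± 0.17. Of 26 further genes of DNA break repair, 14 had a region, with 3 higher and 11 lower after postnatal nicotine and 8 higher and 6 lower after pre- and postnatal nicotine. Mre11a, the nuclease that works with Rad50, differed by -0.10 ± 0.19 and 0.38 ± 0.26. Exo1 and Pcna, the measured genes of the short mismatch list, were lower in both exposures, and of 3 direct reversal genes 2 lay higher after postnatal and 1 after pre- and postnatal nicotine.

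One further division of the postnatal samples was read from the signal itself and not from the labels, so values along it are given as a description, with no test. It separates samples with 25.2% (nicotine libraries 1 and 2) and 18.7% (saccharin libraries 3 and 4) of signal in the 15 strongest regions, and those with 10.04% (nicotine libraries 3 and 4) and 8.47% (saccharin libraries 1 and 2). Rad9, a subunit of the checkpoint clamp (chr19:4200552-4202458, mm9), had 68.1 and 28.7 in nicotine and 31.5 and 65.2 in saccharin samples, where the high values were those of the high share. High minus low was 1.12 on the log2 scale, while nicotine minus saccharin was -0.03 ± 0.37. Pold4, whose region starts 29.2 kb further along the chromosome, had 20.8 and 16.2 in nicotine and 10.4 and 30.7 in saccharin samples, with a high minus low difference of 0.91. The labels name no batch for these samples.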

How the data were processed

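Per the labels' protocols, H3K4me3 ChIP-seq libraries of cerebral cortex were sequenced with the Illumina Genome Analyzer. The deposited values are a signal: reads per region that the authors adjusted with edgeR, per the submitters' processing notes, on build mm9, separately per table. Aligner, peak caller and software versions: not given in the sources used here. Of 19203 rows per table, 4322 were empty and 14881 were used. The adjusted values were not whole, so no count model was run and depth is unknown.

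Log2 of signal plus a pseudocount of 1 was fitted with limma 3.58.1 with trend (R 4.3.3), two-sided, over regions that reached 1 in at least the smaller group's number of samples. Benjamini-Hochberg adjustment ran over all regions, with a threshold of 0.05. Each exposure was fitted on its own, and a joint fit gave their difference. The fits were also run on simulated data with the same spread for every region, unlike the real values, and no result here rests on that run. The alternatives were other pseudocounts, filters and scalings, limma with no trend, summed regions, 8 separate libraries, the percentage of signal in regions averaging over 3000 as a term, a replicate block and leaving out each sample.

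Genes were named by rule: the 6 members with the lowest unadjusted p per exposure and direction, the 5 highest and 5 lowest in signal per table, the 2 of lowest p and the strongest per role, and the 2 of lowest p per further list. Rad9 and further members named with the levels and the roles were chosen after their values were seen. The members, the gene lists and the tests were chosen with earlier results of these data known. Promoter windows were taken from RefSeq (GRCm38.p6) by symbol and searched for exact letters with Python 3.11.15. Figures were drawn with matplotlib 3.10.9. Some members are not reported here by name; they stay in the fits, counts and medians. Exon and intron positions of the regions were not analysed here.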

Additional observations from a re-analysis of the deposited data

Results flagged for a closer look

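At Tdg and Polq the nicotine samples lay on opposite sides of the saccharin samples in the 2 exposures, with no overlap in either: above them after postnatal exposure and below them after pre- and postnatal exposure. For Polq the postnatal separation holds only for the averaged samples, and its difference there was 0.22 ± 0.34 (SE). Its single postnatal libraries overlapped, at 22.2 to 31.6 in nicotine and 19.2 to 29.1 in saccharin, while those of Tdg did not. Of all regions, 15.0% lay higher without overlap after postnatal exposure and 4.46% lower without overlap after pre- and postnatal exposure. The share of regions with both was not counted. The pre- and postnatal minus the postnatal difference was -0.67 on the log2 scale for Tdg and -1.81 for Polq, and neither passed the test of that difference (limma adjusted p = 1.00 each). Each exposure had its own saccharin samples and its own table, adjusted separately. The cause was not tested.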

How the results depend on the processing

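The number of the 66 genes at an adjusted p under 0.05 was 0 in both exposures under every alternative run for them. For the difference between exposures it was 0 with a pseudocount of 5 and with quantile normalization, the alternatives run there. Regions outside the 66 genes did pass in some alternatives. Among these, after postnatal exposure, were 9 of 14873 regions with the class of strongest-region share as a term and 1 with the replicate block. After pre- and postnatal exposure, 1 of 14879 passed in limma without the trend and 17 of 14881 without nicotine library 1. The median difference in each exposure moved by less than the spread between samples. Counts at an unadjusted p under 0.05 moved. After postnatal exposure, the count of higher genes (2 as reported) was 4 with 8 separate libraries, 1 with regions summed per gene, 1 with the replicate block and 1 to 1 on leaving out a sample. The count of lower genes (0 as reported) was 4 with 8 separate libraries, 4 with the class of strongest-region share as a term, and 2 with limma without the trend. Over all regions, in either direction, 281 of 14873 were at that level as reported and 1375 of 14870 with 8 separate libraries. It was 1064 of 14873 with the class as a term and 396 of 14873 without the trend. With the replicate block it was 138 of 14873, and with regions summed per gene 253 of 10542 genes. After pre- and postnatal exposure, the count of higher genes (1 as reported) was 2 with quantile normalization, 2 with summed regions and 1 to 4 on leaving out a library, and that of lower genes (1 as reported) was 1 to 3. Over all regions, in either direction, it was 534 of 14879 as reported and 538 of 14880 with quantile normalization. With summed regions it was 368 of 10543 genes, and on leaving out a library 352 to 1690 regions.

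Samples of the same number did not deviate together: r over regions was -0.35 to -0.27 for postnatal libraries and -0.48 for their averages, and -0.10 for pre- and postnatal numbers 1 and 3, so the replicate block was not used in the report. Crossing the averaged postnatal pairs gives the same division as the class of strongest-region share. Under the block, pre- and postnatal nicotine library 4 and saccharin library 2 had no partner of the same number. The pre- and postnatal difference then rested on libraries 1 and 3 of each group. It was -1.08 at Polq and 0.55 at Rpa2, with unadjusted limma p of 0.0906 and 0.0867. Both genes were under 0.05 without the block, where all libraries counted. With the share of the strongest regions as a covariate in place of the block, the Polq difference was -1.45. Pre- and postnatal differences changed sign under the block at Rpa3 (0.495), Orc5 (-0.15), Exo1 (0.087) and Gins2 (0.38). Rpa3 also did so with quantile normalization (0.12) and with the share as a covariate (0.092). With quantile normalization the postnatal differences at Exo1 (0.064) and Trp53 (0.018) changed sign.

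On leaving out a sample, postnatal differences crossed 0 at Alkbh2 (-0.062 to 0.17), Ercc6 (-0.36 to 0.0056), Exo1 (-0.17 to 0.12, with 0.073 without nicotine libraries 1 and 2), Gtf2h4 (-0.048 to 0.96), Mcm7 (-0.28 to 0.050), Mdm2 (-0.16 to 0.15, with 0.082 without the same libraries), Mpg (-0.17 to 0.41, with -0.026 without saccharin libraries 3 and 4), Mre11a (-0.31 to 0.12), Rrm1 (-0.52 to 0.16), Trp53 (-0.39 to 0.33) and Xrcc5 (-0.21 to 0.67). Pre- and postnatal differences did so at Exo1 (-0.22 to 0.17), Gins2 (-1.45 to 0.15), Orc5 (-0.11 to 0.51), Rpa3 (-0.28 to 0.42), Xrcc2 (-0.34 to 0.029) and Xrcc5 (-0.33 to 0.27). The cause of these changes was not tested. A sample left alone in its group is assumed to vary like the others. Depth is unknown, and genes of low signal set the widest intervals.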
